A study of Mus musculus with 4 samples.

Results

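Ribosomal protein genes encode the protein parts of the ribosome, the machine that translates mRNA. They were taken by symbol: genes beginning with Rpl or Rps and a number, plus Rplp0, Rplp1, Rplp2 and Rpsa, without pseudogene symbols and the Rps6k kinases. That gave 85 of the 14721 genes in the deposited table. They comprise 31 small subunit genes, 43 large subunit genes, 3 genes of the P stalk (the flexible arm of the large subunit that recruits translation factors) and 7 paralogs of a core gene. The last member, Rps19bp1, encodes a protein that binds RPS19 and is not itself a ribosomal protein. Of the 85, 84 had a UMI (a counted transcript molecule) in each library.

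Ribosomal proteins are made in near equal numbers, and free copies are degraded. Their mRNAs usually begin with a C followed by a run of pyrimidines, the terminal oligopyrimidine (TOP) tract, through which mTORC1 and the RNA-binding protein LARP1 set their translation. T cells leaving the resting state build ribosomes before they divide, and lymphocytes hold much mRNA of this family.

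The series holds 4 samples: an RNA and a receptor library of T cells labelled as tumor, and an RNA and a receptor library labelled as lymph node. The animals carried subcutaneous B16F10 tumors, a mouse melanoma line, received a single 250 mg/kg dose of cyclophosphamide and then TRP1-specific CD4 T cells, and were sampled on day 11 after transfer. All 4 samples carry the strain label RAG1- BW TRP-1 TCR and the treatment label untreated, and no source used here gives ages or animal numbers. Sample titles name transgenic and endogenous cells for tumor and endogenous cells for lymph node, so tissue and cell origin cannot be told apart. The source label of all 4 speaks of cells sorted as CD4+ or CD4+CD8+ from tumors, and the protocol of CD45.1+ transferred cells; the gate for lymph node is not stated there. Each tissue had 1 RNA library: nothing below has a replicate, no test was possible, and all intervals are 95% intervals that cover counting error only.

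The authors' labels were taken as given. They split 5570 tumor cells into 2693 Tdp, 2451 Cd4, 406 Tcell, 19 Treg and 1 Cd8, and 4988 lymph node cells into 2788 Cd8, 1873 Cd4, 321 Treg and 6 Tdp. At least 1 of 6 T cell markers (Cd3d, Cd3e, Cd3g, Cd247, Trac, Trbc2) was seen in 99.7% to 100% of the cells of each label with 50 or more cells. Tdp and Cd8 cells held Cd8a UMIs in 90.9% and 86.3% of cells, and lymph node Treg cells Foxp3 UMIs in 73.8% and Cd8a UMIs in 17.1%. Summed B cell markers stood at 31.0 CPM (a gene's UMIs scaled to a fixed total, counts per 1e6 UMIs) in lymph node Treg and 19.8 in lymph node Cd8 cells and at 0.0716 to 1.92 in the other 4 large labels. Summed myeloid markers stood at 4.73 to 15.02 CPM in the 6 large labels and melanoma markers at 0 to 1.19. Of the cell barcodes, 36 occurred in both libraries. Leaving those cells out moved no value recomputed without them beyond its counting error.

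Ribosomal protein mRNA made up the largest part of the transcriptome in conventional lymph node T cells and the smallest in tumor cells and lymph node Treg cells. The median share of a cell's UMIs was 44.8% in lymph node Cd8 cells (quartiles 40.3% and 48.6%) and 43.5% in lymph node Cd4 cells (39.6% and 46.9%). Lymph node Treg cells stood at 30.4% (24.5% and 36.6%). In tumor the median was 28.0% in Cd4 cells (24.97% and 31.2%), 29.4% in Tdp cells (26.6% and 32.2%) and 33.7% in Tcell cells (30.1% and 37.3%). The 19 tumor Treg cells held 22.9% of their summed UMIs in these genes (22.6% to 23.1%). The quartile ranges of the lymph node Cd4 and Cd8 cells lay above those of the 4 other large labels, which overlapped each other. From high to low the order of medians was lymph node Cd8, lymph node Cd4, tumor Tcell, lymph node Treg, tumor Tdp and tumor Cd4, and each neighbour pair but lymph node Cd4 and tumor Tcell had overlapping quartile ranges.

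**Figure D1:**
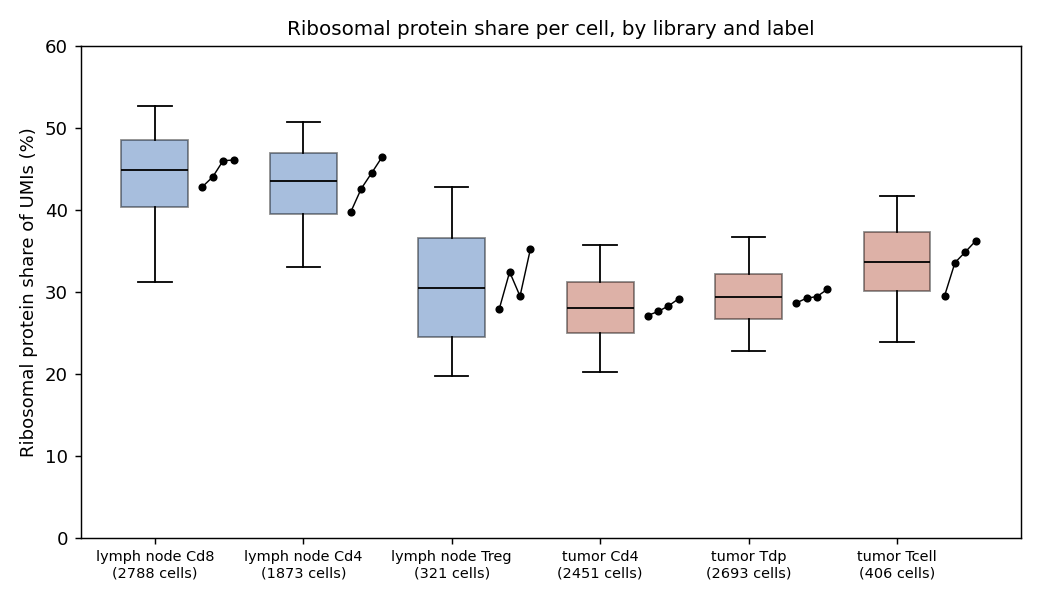
Ribosomal protein share of each cell's UMIs (%) by library and authors' label: boxes are medians and quartiles over cells, whiskers the 5th and 95th percentiles, and the joined points are medians in quartiles of UMIs per cell, shallow to deep. Lymph node Cd8 and Cd4 medians (44.8% and 43.5%) lie above all others, and Treg cells have the tallest box.

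The spread between cells was far wider than sampling of UMIs gives. The standard deviation of the share over cells was 5.61 points in lymph node Cd4, 6.47 in lymph node Cd8, 7.87 in lymph node Treg, 4.81 in tumor Cd4 and 4.22 in tumor Tdp cells. Counting alone gives 0.596 to 0.775 points in these labels. In 5 of the 6 large labels the median share rose with each quartile of depth. From the shallowest to the deepest quartile of cells the median went from 39.8% to 46.4% in lymph node Cd4 cells and from 29.5% to 36.2% in tumor Tcell cells, and from 27.1% to 29.2% in tumor Cd4 and from 28.6% to 30.3% in tumor Tdp cells. In lymph node Treg cells the medians of the 4 quartiles were 27.9%, 32.4%, 29.5% and 35.2%, with no steady order. Spearman's rho between share and UMIs was 0.42 over lymph node Cd4 cells, 0.49 over tumor Tcell cells and 0.14 over tumor Tdp cells; the total UMIs enter both quantities. With every cell thinned to 2000 UMIs, the medians were 44.9% in lymph node Cd8, 43.7% in lymph node Cd4, 30.7% in lymph node Treg, 28.1% in tumor Cd4, 29.5% in tumor Tdp and 35.3% in tumor Tcell cells. Thinning left out 192 of the 406 Tcell cells, whose median was 2040 UMIs, and 12 to 62 cells of each other label. Drawing UMIs at random leaves the expected share of a cell unchanged, so thinning does not remove the rise of the share with depth.

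Both parts of the ratio differed between labels. The median lymph node Cd4 cell held 2051 ribosomal protein UMIs and 2666 other UMIs, and the median tumor Cd4 cell 1526 and 3962. The lymph node Treg cell held 1631 and 3642. Tumor Tdp cells held 1926 and 4676. UMIs per cell also depend on how deeply each library was sequenced, so between libraries these numbers are not RNA content. Within the lymph node library, Treg cells had fewer ribosomal protein UMIs and more other UMIs than Cd4 cells at similar total depth (medians of 5225 and 4763 UMIs). The part of mitochondrial transcripts in the median cell moved with tissue too, at 2.66% to 3.14% in the lymph node labels and 1.95% to 2.03% in tumor Cd4 and Tdp cells, but 3.1% in tumor Tcell cells. Summed over 5 genes, Ccr7, Tcf7, Lef1 and Il7r among them, markers of naive T cells stood at 2006, 1521 and 1158 CPM in lymph node Cd4, Cd8 and Treg cells and at 207, 161 and 176 CPM in tumor Cd4, Tdp and Tcell cells. The part of either in the result was not tested.

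Tumor Cd4 cells had lower levels of nearly every ribosomal protein gene than lymph node Cd4 cells, but to very unequal degrees. The measure was the log2 ratio of summed CPM after adding 1. Genes needed 20 CPM in at least 1 of the groups, and a call needed 1.5-fold. Of the 85 members 83 passed that minimum, all but Rpl3l and Rpl39l, which lay under it in every label; Rps19bp1 did so only through tumor (28.2 against 19.1 CPM). Of the 83, 43 were called lower and 1 higher, against 12.5% lower and 27.5% higher over all 5133 genes. Members are abundant, so other genes at or above the members' lower quartile of CPM (3095 CPM here) were also counted. Of those 19 genes 2 were lower and 5 higher, with a median of 0.06. The median log2 ratio was -0.62 for members and 0.20 for all genes. The summed level was 1.54-fold lower in tumor (log2 -0.62, with a counting interval narrower than the rounding). Scaled by TMM, which moves every ratio by -0.12, the summed log2 ratio was -0.74. Scaled to UMIs without ribosomal protein, mitochondrial and receptor genes it was -0.94 with 72 members lower, so the direction held and the number called did not. At 2-fold 11 members were lower and 0 higher, against 6.21% and 14.7% of genes.

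The small subunit gene Rps29, whose zinc-binding product sits in the head of the small subunit, had the lowest ratio. It stood at 5086 CPM in lymph node Cd4, 4302 in lymph node Cd8 and 3002 in lymph node Treg cells, and at 1915 in tumor Cd4, 1957 in tumor Tdp and 1882 in tumor Tcell cells, so that all 3 tumor labels lay below all 3 lymph node labels. Tumor Cd4 cells were 2.66-fold lower than lymph node Cd4 cells (log2 -1.41, -1.43 to -1.39). Rps20 stood at 11344 CPM in lymph node Cd4 and 4504 CPM in tumor Cd4 cells, 2.52-fold lower (log2 -1.33). Rps19, a gene mutated in Diamond-Blackfan anemia, stood at 8535 and 3586 CPM (log2 -1.25), and Rps28 at 3538 and 1528 CPM (log2 -1.21). Next came the large subunit gene Rpl35 (4698 and 2050 CPM, log2 -1.20) and the small subunit gene Rps26 (5976 and 2798 CPM, log2 -1.09). Of the 31 small subunit genes 20 were called lower (median -0.69), as were 19 of 43 large subunit genes (median -0.54) and 2 of 3 P stalk genes. The stalk genes were Rplp1 at log2 -1.05, Rplp0 at -0.62 and Rplp2 at -0.46. The members nearest the threshold were Rpl36 inside it at -0.59 and Rps21 outside it at -0.58.

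At the other end of the ranking stood a few core genes with nearly equal levels. Rpl27, a large subunit gene, stood at 2160 CPM in tumor Cd4 and 1952 CPM in lymph node Cd4 cells, a log2 ratio of 0.15 that became -0.17 when scaled to UMIs without ribosomal protein, mitochondrial and receptor genes. Rpl24 stood at 3210 and 3280 CPM (log2 -0.03), Rpl29 at 3745 and 3920 CPM (-0.07), and the small subunit gene Rps15a at 9336 and 9856 CPM (-0.08). Rpl7a, at 1796 and 1902 CPM, had a log2 ratio of -0.08. As parts of all ribosomal protein UMIs, which do not depend on scaling, Rps29 went from 1.17% in lymph node Cd4 to 0.676% in tumor Cd4 cells, Rps20 from 2.60% to 1.59%, Rps15a from 2.26% to 3.29% and Rpl27 from 0.447% to 0.762%. The standard deviation of these within-family log2 ratios over the core genes was 0.31 here, against 0.12 between tumor Tdp and Cd4 cells and 0.11 between lymph node Cd8 and Cd4 cells. In the mm10 assembly Rps29 lies on chromosome 12 at 69157722 to 69159186, Rps20 on chromosome 4 at 3831584 to 3835655 and Rpl27 on chromosome 11 at 101442245 to 101445596.

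**Figure D2:**
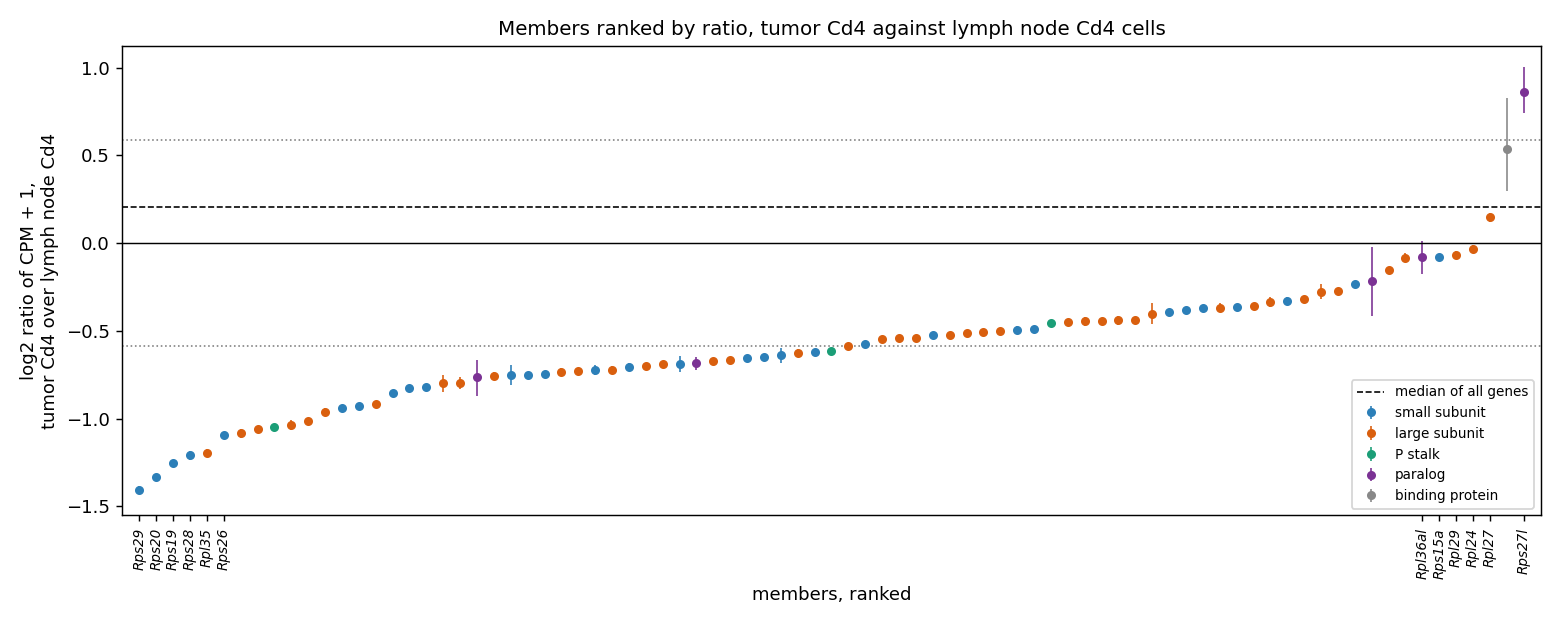
Log2 ratio of CPM + 1, tumor Cd4 over lymph node Cd4 cells, for the 83 members at 20 CPM or more, ranked, with names for the 6 lowest and the 6 highest at 50 CPM or more; bars are 95% counting intervals, dotted lines mark 1.5-fold and the dashed line the median of all genes (0.20). The ratios run from -1.41 (Rps29) to 0.86 (Rps27l), and 80 of 83 lie below 0.

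RefSeq start sites were looked up because the TOP tract is the shared sequence feature of this family. Of the 85 members 65 had a start in the table used (GRCm38.p6, the assembly also called mm10). At the annotated start 14 of the 65 (21.5%) had a C followed by at least 4 pyrimidines, against 3.05% of 10770 genes of the count table. Allowing 5 bases either side of the start the shares were 46.2% and 23.8%. Windows of 15 bases before and 15 bases from the start are shown, 5′ to 3′, with the unbroken pyrimidine run at the start in capitals. They are given for 4 core genes and for Rps27 and its relatives. The 4 were picked among members with such a tract, to spread over the ratios of those members, after the ratios were seen. Of the 65 matched members 51 have no such tract at the annotated start.
Rpl35, chr2:39005117-39005146, minus strand: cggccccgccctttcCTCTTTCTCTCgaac
Rpl28, chr7:4792950-4792979, plus strand: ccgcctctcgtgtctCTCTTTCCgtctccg
Rps6, chr4:86857353-86857382, minus strand: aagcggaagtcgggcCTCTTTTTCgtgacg
Rps15a, chr7:118116133-118116162, minus strand: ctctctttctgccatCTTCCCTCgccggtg
Rps27, chr3:90213634-90213663, minus strand: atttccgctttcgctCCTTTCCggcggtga
Rps27rt, chr9:114982725-114982754, minus strand: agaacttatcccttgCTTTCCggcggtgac
Rps27l, chr9:66946071-66946100, plus strand: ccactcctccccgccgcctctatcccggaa
Rps29 and Rps20, the lowest in the ranking, are not among the matched members. A tract was found in matched genes with low ratios and with ratios near 0: Rpl35 and Rpl28 had log2 ratios of -1.20 and -1.06, Rps6 -0.72 and Rps15a -0.08. Over the 13 core members with a tract at the annotated start the ratios ran from -1.20 to -0.08 (median -0.71), and over the 44 matched core members without one from -1.25 to 0.15 (median -0.55). Annotated starts can lie some bases from those used in T cells, and no match says only that these letters are not at that position. Of 5 other motifs searched on both strands in the 300 bases around the start, the ETS-type letters CCGGAAG were present in 40.0% of matched members and 19.4% of genes. The shares for AAGATGGC, the core of the YY1 site, were 9.23% and 5.14%. The GC box GGGCGG was present in 61.5% and 65.5%, the E-box CACGTG in 9.23% and 11.3%, and the TATA box letters TATAAA in 10.8% and 8.93%.

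Rps27l and Rpl36al held a larger part of their pairs in tumor than in conventional lymph node cells. Rps27l, a p53-inducible paralog of the small subunit gene Rps27, stood at 71.3 CPM in lymph node Cd4, 90.6 in lymph node Cd8 and 159 in lymph node Treg cells. It stood at 130 CPM in tumor Cd4, 136 in tumor Tdp and 146 in tumor Tcell cells. Levels were thus lowest in the 2 conventional lymph node labels. It was 1.83-fold higher in tumor Cd4 than in lymph node Cd4 cells (log2 0.86, 0.74 to 1.00), whereas Rps27 was 1.68-fold lower (3853 and 6470 CPM). With scaling to UMIs without ribosomal protein, mitochondrial and receptor genes the ratio of Rps27l was 0.55, below the 1.5-fold threshold. Within the pair, where scaling cancels, Rps27l took 1.09% of UMIs in lymph node Cd4 cells (exact Clopper-Pearson interval 1.01% to 1.18%) and 1.55% in Cd8 cells (1.47% to 1.62%). It took 3.74% in lymph node Treg (3.34% to 4.18%), 3.27% in tumor Cd4 (3.12% to 3.42%), 3.70% in tumor Tdp (3.56% to 3.84%) and 3.61% in tumor Tcell cells (3.01% to 4.30%). With lymph node Cd4 cells drawn by UMIs (a Cd4 UMI and no Cd8a or Cd8b1 UMI, whatever the label) the first value was 1.41%. That set takes in Treg-labelled cells and leaves out Cd4-labelled cells without a Cd4 UMI. Cd4 UMIs were seen in 50.7% of the Cd4-labelled and 50.5% of the Treg-labelled lymph node cells.

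Rpl36al, a paralog of the large subunit gene Rpl36a, took 5.89% of the pair's UMIs in lymph node Cd4, 5.88% in lymph node Cd8 and 8.19% in lymph node Treg cells, and 10.8%, 11.0% and 10.2% in tumor Cd4, Tdp and Tcell cells. Its own level was nearly flat, at 164 to 209 CPM, and Rpl36a went from 2773 CPM in lymph node Cd4 to 1353 CPM in tumor Cd4 cells. Rpl22 and Rpl22l1, a pair in which RPL22 holds down Rpl22l1 and is needed for the development of alpha beta T cells, followed another order. Rpl22l1 took 33.8% of the pair in tumor Tdp cells (33.4% to 34.2%), 33.4% in lymph node Cd4 and 32.9% in lymph node Cd8 cells. It took 28.8% in tumor Cd4 (28.3% to 29.2%), 28.6% in lymph node Treg and 28.1% in tumor Tcell cells. In this share the Tdp label lay with the conventional lymph node labels and apart from tumor Cd4 cells of the same library. The level of Rpl22l1 did not follow that order. It was 953 CPM in tumor Tdp, 822 in tumor Cd4, 1008 in tumor Tcell and 908 in lymph node Treg cells. Lymph node Cd4 and Cd8 cells stood at 1320 and 1372 CPM. Rpl22 was lowest in tumor Tdp cells, at 1868 CPM against 2036 CPM in tumor Cd4 cells. Rpl7l1 took 1.22% to 2.28% of its pair with Rpl7, the highest in lymph node Treg cells. Rps27rt, a retrogene copy of Rps27, took 2.63% to 2.86% of its pair in the 6 labels, with overlapping intervals; reads of such copies cannot be assigned with certainty. Rpl39l held 48 UMIs in all, and Rpl3l, a muscle paralog of Rpl3, had 0 UMIs, which allows up to 0.0482 CPM over the whole table.

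**Figure D3:**
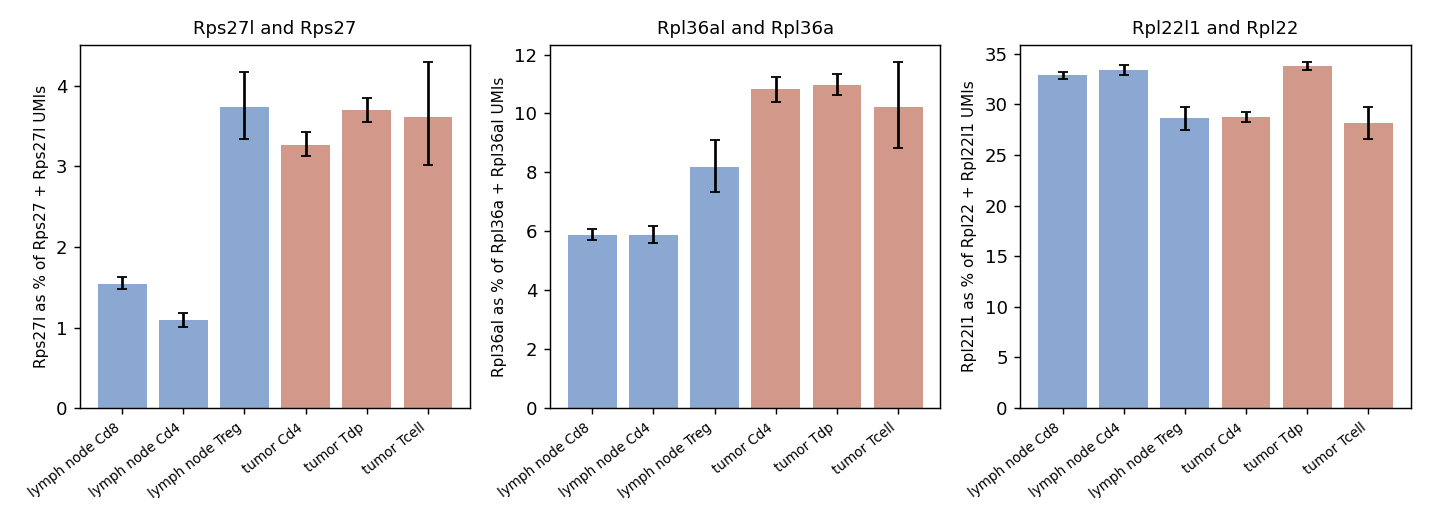
Partner gene as a percent of the UMIs of a pair, by label (blue lymph node, red tumor), with exact 95% counting intervals; each panel has its own axis from 0. Rps27l and Rpl36al are lowest in lymph node Cd8 and Cd4 cells, and Rpl22l1 is 33.8% in tumor Tdp against 28.8% in tumor Cd4 cells.

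Over all labels, the 3 tumor labels lay below the 3 lymph node labels for 26 of 83 members, against 18.9% of 5775 genes, and above them for 2 members, Rpl27 and Rps19bp1, against 17.9% of genes. Rps19bp1 is not a ribosomal protein gene. The place of Rpl27 depends on scaling, as its ratio between Cd4 cells changed sign with the other total. The labels of a library share its preparation and are not replicates. Between the whole libraries 34 of 83 members were called lower in tumor and 0 higher, against 11.1% lower and 22.5% higher over all genes. With the total that left out ribosomal protein, mitochondrial and receptor genes 71 were lower. The median log2 ratio was -0.56 for members and 0.16 for all genes. Of 21 other genes at 3012 CPM or more 3 were lower and 6 higher, with a median of 0.21. Rps29 (1936 against 4456 CPM), Rps20 (4958 against 11018 CPM) and Rps19 (3533 against 7575 CPM) again had the lowest ratios. The libraries differ in the labels they hold. At 2-fold 5 members were lower, against 5.19% of genes. Rps27l, at 134 and 89.3 CPM (log2 0.58), lay just under the threshold.

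Within tumor, Tdp and Cd4 cells carrying the same transgenic receptor differed little. Cells were taken as transgenic where they held a chain of the most frequent tumor receptor. In 2682 Tdp cells the members held 29.7% of summed UMIs and in 2435 Cd4 cells 28.3%, a log2 ratio of 0.07 that was 0.18 under TMM. None of the 83 members passed 1.5-fold in either direction, against 2.87% of 4816 genes higher and 6.48% lower. Of 42 other genes at 2085 CPM or more 5 were higher and 2 lower, with a median of -0.03. The members' ratios ran from -0.18 to 0.37 with a median of 0.07, beside -0.11 for all genes. Among the highest were the small subunit gene Rps26 (3613 against 2799 CPM, log2 0.37), Rpl28 (3015 against 2347 CPM, 0.36), Rpl35 (2585 against 2048 CPM, 0.34) and Rpl32 (6261 against 5030 CPM, 0.32). The lowest was Rpsa, the laminin receptor and small subunit gene (7610 against 8636 CPM, log2 -0.18), followed by Rpl29 (-0.16), Rps14 (-0.13), Rpl22 (-0.12), Rps27 (-0.12) and Rps21 (-0.10, but 0.02 under TMM). Against lymph node Cd4 cells, the tumor Cd4 cells had log2 ratios of -1.09, -1.06 and -1.20 for Rps26, Rpl28 and Rpl35; the tumor Cd4 cells are common to both comparisons.

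Lymph node Cd8 and Cd4 cells were likewise close. The summed log2 ratio was 0.02 (0.12 with groups drawn by UMIs). None of 12 other genes at 3170 CPM or more passed 1.5-fold. Of the 83 members 0 passed it, against 4.24% of 4529 genes higher and 4.55% lower. The highest ratios were those of Rps27l (90.6 against 71.3 CPM, log2 0.34), Rpl23a (1060 against 874 CPM, 0.28), Rpl7a (0.27), Rps12 (0.25), Rpl41 (0.22) and Rpl24 (0.20). The lowest were those of Rps29 (4302 against 5086 CPM, -0.24), Rps19 (7342 against 8535 CPM, -0.22), Rps27 (-0.17), Rpl12 (-0.16), Rpl8 (-0.15) and Rpl5, a 5S RNA partner that also restrains MDM2 (-0.14).

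**Figure D4:**
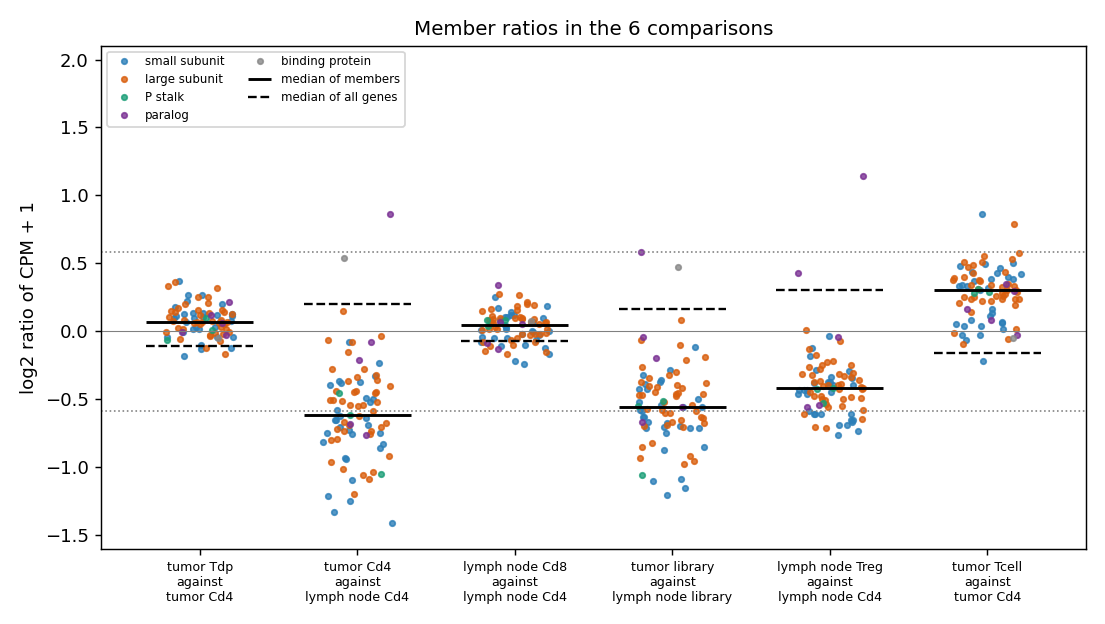
Log2 ratio of CPM + 1 of the tested members in 6 comparisons, colored by class; solid bars are member medians, dashed bars medians of all genes, dotted lines 1.5-fold. The members' medians are -0.62 and -0.42 in tumor against lymph node Cd4 and in lymph node Treg against Cd4 cells, and 0.07 and 0.04 in tumor Tdp against Cd4 and lymph node Cd8 against Cd4 cells.

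Regulatory T cells suppress immune responses and depend on the factor FOXP3. In lymph node, cells labelled Treg had lower ribosomal protein levels than Cd4 cells of their own library, 1.37-fold in sum (log2 -0.45). Of 82 members tested, 16 were called lower and 1 higher, against 3.84% lower and 25.5% higher over 5184 genes. The medians were -0.42 for members and 0.31 for all genes. Of 15 other genes at 3317 CPM or more 0 were lower and 3 higher, with a median of 0.03. TMM moved all ratios by -0.34 here and gave 70 members lower. At 2-fold 0 were lower and 1 higher, against 1.41% and 10.5% of genes. Small subunit genes made up 12 of the 16. The lowest were Rps29 (3002 against 5086 CPM, log2 -0.76), Rps24 (9484 against 15762 CPM, -0.73), Rpl12 (-0.71), Rpl8 (-0.70), Rps19 (-0.69) and Rps20 (-0.69). Among the highest were Rps27l (159 against 71.3 CPM, 1.14), Rpl7l1 (57.3 against 42.4 CPM, 0.43), Rpl7a (0.01), Rpl36al (-0.04) and Rpl24 (-0.07); Rpl7a was below 0 under TMM. Without cells holding a B cell, myeloid or melanoma marker UMI the summed log2 ratio was -0.44.

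Cells labelled Treg also varied the most among themselves, and that variation moved with Ccr7, a homing receptor of naive and central memory T cells. At 2000 UMIs per cell, the 119 Treg cells with a Ccr7 UMI had a median share of 36.0% (quartiles 31.6% and 39.8%) and the 190 without one 26.4% (22.5% and 32.9%). Those with Tcf7 stood at 34.8% (66 cells) against 29.1%, and those with Foxp3 at 27.2% (151 cells) against 32.9%. The gap was smaller and of opposite sign in conventional lymph node cells. Cd4 cells with and without Ccr7 stood at 43.4% and 44.1%, and Cd8 cells at 44.4% and 45.4%. Total depth was similar on both sides in Treg cells, at medians of 5617 and 5147.5 UMIs with and without Ccr7. Summed naive markers stood at 1158 CPM in Treg and 2006 CPM in Cd4 cells. Foxp3 UMIs were seen in 73.8% of the cells labelled Treg and Cd8a UMIs in 17.1%. Variation among Treg cells and a mix of cell types under the label thus cannot be told apart. Single cells are not replicates, and the gaps between labels were not tested.

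**Figure D5:**
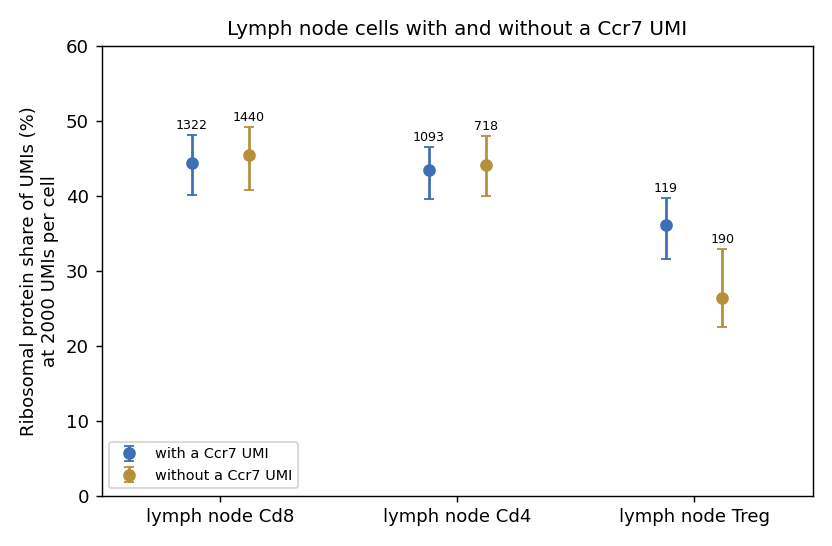
Ribosomal protein share of UMIs (%) at 2000 UMIs per cell in lymph node labels, for cells with and without a Ccr7 UMI: points are medians, bars quartiles over cells, and numbers are cells. Treg cells differ by 9.62 points with a Ccr7 UMI higher, and the Cd4 and Cd8 cells by -0.68 and -1.02 points.

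The tumor cells labelled Tcell, which had the lowest depth (median 2040 UMIs and 816.5 genes), had a higher summed level than tumor Cd4 cells, by log2 0.28. Of 83 members 2 were called higher and 0 lower, against 5.25% and 20.1% of 5029 genes. They were Rps15 (1040 against 570 CPM, log2 0.87) and Rpl23a (1246 against 721 CPM, 0.79). At 2-fold 0 were higher, against 1.11% of genes. Next were Rpl13a (0.57), Rpl37 (0.55), Rpl7a (0.53) and Rpl6 (0.51), and the lowest were Rps9 (-0.22) and Rpl10 (-0.09). Between 5 and 12 members were called higher with TMM, with at least 1000 genes per cell, at 2000 UMIs per cell or with a total that left these genes out. Of 35 other genes at 2445 CPM or more 5 were higher and 8 lower, with a median of 0.07. Coreceptor UMIs differed too. Cd4, Cd8a and Cd8b1 UMIs were seen in 45.3%, 31.5% and 42.6% of Tcell cells and in 84.4%, 2.82% and 9.83% of tumor Cd4 cells. Depth and coreceptor content both moved with this label, and the part of either was not tested.

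The balance of the subunits changed little. Small subunit genes took 46.5% of the core UMIs in lymph node Cd4, 45.6% in lymph node Cd8 and 45.02% in lymph node Treg cells, and 44.7%, 44.6% and 44.1% in tumor Cd4, Tdp and Tcell cells. The P stalk genes took 5.38% to 5.56% of all ribosomal protein UMIs in the lymph node labels and 4.90% to 5.04% in the tumor labels. The 8 members with the most UMIs were Rps24, Rps15a, Rpsa, Rpl13, Rplp0, Rps20, Rps16 and Rpl19, together 20.1% of the family's 22264652 UMIs. Reads that also match a pseudogene can be lost, so this order is one of UMIs and not of transcripts.

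Other genes of translation followed the ribosomal proteins only in part between tumor and lymph node Cd4 cells. Each count here stands beside the 27.5% higher, 12.5% lower and median of 0.20 over all genes. Rack1, a scaffold on the small subunit, stood at 1376 against 1898 CPM (log2 -0.46) and Fau, the precursor of RPS30, at 8767 against 9354 CPM (-0.09), both short of 1.5-fold. None of 9 elongation and nascent chain genes passed 1.5-fold (median -0.25). They ranged from Eef1b2 (-0.45), Naca (-0.38) and the elongation factor gene Eef1a1 (12615 against 15784 CPM, -0.32) to Eif5a (0.37). Among 33 initiation factor genes 3 were called higher and 0 lower (median 0.07), a smaller part on both sides than over all genes, namely Eif1a (0.84), Eif1ax (0.61) and the cap-binding factor gene Eif4e (66.0 against 43.3 CPM, 0.60). Of 31 tested ribosome biogenesis genes 11 were called lower and 1 higher (median -0.44). The lowest were the rRNA methyltransferase gene Fbl (70.1 against 145 CPM, -1.03), Dkc1, the pseudouridine synthase gene (18.0 against 36.7 CPM, -0.98), and Rrp9 (13.0 against 26.1 CPM, -0.96). The highest was the RNA polymerase subunit gene Polr1c (0.91). Of the genes called lower, Dkc1, Rrp9, Wdr12, Tsr1 and Rcl1 reached the minimum of 20 CPM only in lymph node. A gene that passes only there can only come out lower, so the count of lower genes rests in part on that minimum. Mitochondrial ribosomal protein genes had 9 of 71 higher and 2 lower (median 0.12), also a smaller part on both sides than over all genes, from Mrps5 (-1.06) to Mrps6 (1.82). Of the genes called higher, Mrps6 (47.7 against 12.8 CPM), Mrpl16 (32.6 against 19.2 CPM) and Mrpl27 (31.2 against 19.3 CPM) passed the minimum only through tumor. In the short list of growth control genes 3 of 9 were lower and 2 higher, too few genes to set against those shares. The lower genes were the mTORC1 inhibitor gene Sesn1 (11.7 against 52.1 CPM, -2.07), Sesn3 (-1.28) and Myc (25.2 against 48.1 CPM, -0.91). The higher genes were Eif4ebp1, a translation repressor that mTORC1 inactivates (56.4 against 8.67 CPM, 2.57), and Rheb (0.70). Sesn1 passed the minimum only through lymph node and Eif4ebp1 only through tumor.

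In lymph node Treg against Cd4 cells 25.5% of all genes were higher and 3.84% lower, with a median of 0.31. Of 33 biogenesis genes tested 1 was higher and 0 lower (median 0.12), a smaller part on both sides. That gene was Nop16 (38.9 against 22.9 CPM, log2 0.74). Fbl stood at 118 against 145 CPM (-0.29), and Myc at 121 against 48.1 CPM (1.32). Elongation and nascent chain genes had a median of -0.27 over 9 genes, with Eef1b2 at -0.46, Tpt1 at -0.45, Eef1a1 at -0.43 and 1 gene, Eif5a, called higher (0.59). Initiation factor genes had 4 of 33 higher (Eif4e at 0.85, Eif3c at 0.64, Eif1ax at 0.62 and Eif1a at 0.61) and a median of 0.19, and mitochondrial ribosomal protein genes 9 of 71 higher, 0 lower and a median of 0.22. Both lists had a smaller part called higher than all genes and a lower median. Of the mitochondrial ribosomal protein genes called higher, Mrps6 (33.1 against 12.8 CPM) passed the minimum only through Treg cells.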

How the data were processed

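The authors deposited raw UMI counts per gene and cell in a single table, and an annotation with other values per cell (library, cell label, clonotype, CDR3 sequences). Libraries were made with a droplet 5′ kit, per the labels' protocols. Cell Ranger 3.1.0 and mm10 are named, per the submitters' processing notes. No source used here states how cells were labelled or filtered. The tumor and lymph node RNA libraries held 33147030 and 29067001 UMIs.

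Counts were summed per label and scaled to CPM (Python 3.11.15, pandas 2.3.3, scipy 1.17.1). Log2 ratios used a pseudocount of 1, a minimum of 20 CPM and 1.5-fold. Intervals are exact conditional Poisson or Clopper-Pearson intervals at 95%. Receptor segments, Cd4, Cd8a and Cd8b1 were left out of the gene counts. The comparison of Tdp with Cd4 cells used cells carrying a transgenic chain. TMM factors came from edgeR 4.0.16 (R 4.3.3), used for scaling only. No doublet caller was run, and an alternative left out the 5% deepest cells of each label.

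The text names, per comparison, the 6 highest and 6 lowest members with 50 CPM and 100 UMIs, the members with the most UMIs and the paralogs. A few genes that this rule picks are not reported here. From other translation lists it names the 3 highest and 3 lowest or fewer, plus Fbl, Myc and the genes called, chosen after their values were seen. The members and lists were chosen with earlier results of these data known. The ratio script was tested on simulated data. Positions and start-site sequences are from RefSeq (GRCm38.p6). Alternatives were TMM, a total lacking ribosomal protein, mitochondrial and receptor genes, averaging CPM over cells, thinning to 2000 UMIs and other cell filters. Further ones were leaving out barcodes found in both libraries (chosen after seeing the data), groups drawn by UMIs, a pseudocount of 10, a CPM minimum of 50 or none, and 2-fold. Groups drawn by UMIs set the labels aside, so cells of any label could enter. Cd4 cells then held a Cd4 UMI and no Cd8a or Cd8b1 UMI, Cd8 cells the reverse, and Tdp cells both.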

Additional observations from a re-analysis of the deposited data

How the results depend on the processing

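No paired analysis was possible because each tissue had 1 RNA library and no replicate numbers. In all alternatives run the 6 summed log2 ratios kept their sign. They are given in the order tumor Tdp against Cd4, tumor against lymph node Cd4, lymph node Cd8 against Cd4, tumor against lymph node library, lymph node Treg against Cd4, and tumor Tcell against Cd4. They were 0.18, -0.74, 0.089, -0.64, -0.79 and 0.35 under TMM, with 70 Treg members lower and 6 Tcell members higher. With the total that left out ribosomal protein, mitochondrial and receptor genes they were 0.090, -0.94, 0.046, -0.86, -0.75 and 0.39. That gave 72 members lower and 0 higher in tumor Cd4, 71 lower between libraries, 65 lower in Treg and 12 higher in Tcell cells. With the mean of each cell's CPM they were 0.073, -0.61, 0.034, -0.55, -0.48 and 0.25, with 2 members higher in tumor Cd4 cells. Leaving out the 5% deepest cells gave 0.070, -0.63, 0.027, -0.57 and -0.48 for the first 5. Leaving out cycling cells gave 0.069, -0.62, 0.030, -0.58 and -0.44, with 2 members higher in tumor Cd4 cells and 1 between libraries. Leaving out cells with markers of other cell types gave 0.064 for Tdp, -0.57 between libraries and -0.44 for Treg cells. Groups drawn by UMIs gave -0.53 between Cd4 cells, with 2 members higher, and 0.12 for lymph node Cd8 cells. At least 1000 genes per cell gave -0.57 between libraries and 0.31 for Tcell cells with 5 higher. At 2000 UMIs per cell the ratios were 0.071 for Tdp, 0.028 for lymph node Cd8, -0.56 between libraries, -0.48 for Treg and 0.34 for Tcell cells, with 2 members higher in tumor Cd4, 1 between libraries and 8 in Tcell cells. At 2-fold, 11 members were lower and 0 higher in tumor Cd4, 5 lower between libraries, 0 lower in Treg and 0 higher in Tcell cells. With no CPM minimum 1 member was lower in Tcell cells.

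Median shares in lymph node Cd8, Cd4 and Treg and tumor Cd4, Tdp and Tcell cells were 46.4%, 44.9%, 31.4%, 29.7%, 31.0% and 35.2% of a total without mitochondrial and receptor genes. At 2000 UMIs those that moved were 44.9%, 43.7% and 30.7% in lymph node and 29.5% and 35.3% in tumor Tdp and Tcell cells. Without the deepest cells lymph node Cd4 and Treg cells stood at 43.4% and 30.1% and the tumor labels at 28.0%, 29.4% and 33.5%. Without cycling cells lymph node Cd8 and Treg cells stood at 45.05% and 30.8%, and tumor Cd4 and Tdp cells at 28.0% and 29.5%. Without other markers the lymph node labels stood at 44.9%, 43.4% and 30.7%. With at least 1000 genes lymph node Cd4 cells stood at 43.6% and the tumor labels at 28.1%, 29.5% and 35.1%. Groups drawn by UMIs gave 44.9% and 42.0% in lymph node Cd8 and Cd4 and 28.2% and 29.5% in tumor Cd4 and Tdp cells. Of the paralog shares, at 2000 UMIs Rpl22l1 took 32.9% in lymph node Cd4, 30.0% in lymph node Treg and 33.1% in Tdp cells. Rpl36al then took 6.18% in lymph node Cd8, 11.4% in tumor Cd4 and 10.5% in Tdp cells, Rps27l 3.36% in Tdp cells and Rps27rt 2.87% in lymph node Cd8 cells. With at least 1000 genes Rpl22l1 took 31.6% in Tcell cells. In lymph node Cd4 cells drawn by UMIs, Rpl22l1, Rps27l, Rpl7l1 and Rpl36al took 32.8%, 1.41%, 1.42% and 6.56%. The causes were not tested.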

Other observations

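Tumor cells with a UMI of the granzyme gene Gzmb had a somewhat lower share than those without one. No other cytotoxic gene was examined in this way, and cells without a Gzmb UMI may still express it. At 2000 UMIs per cell the 833 tumor Cd4 cells with a Gzmb UMI had a median share of 27.7% and the 1585 without one 28.3%. In tumor Tdp cells the medians were 29.4% over 2453 cells with Gzmb and 31.0% over 210 without, with overlapping quartiles. The 68 tumor Cd4 cells with a UMI of Tcf7, a factor of naive and stem-like T cells, stood at 30.3% and the 2350 without at 28.0%. Cells with a UMI of a cycling marker stood at 29.1% against 28.0% in tumor Cd4, at 29.3% against 29.5% in tumor Tdp and at 42.4% against 44.95% in lymph node Cd8 cells. These gaps were smaller than the quartile range of each label.

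Rows with pseudogene symbols beside the members were also read. Rpl13a-ps1 took 8.80% of the UMIs it shared with Rpl13a in tumor and 9.46% in lymph node, and Rpl27-ps3 took 5.02% and 5.06% of those shared with Rpl27. The other 6 such rows with a member as parent took under 1% in both libraries. The share was near equal in tumor and lymph node for Rpl27, the core member with the highest ratio in tumor. Reads that match both a gene and its pseudogene can be lost from both rows, so these shares do not count them.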
